A study of Mus musculus with 8 samples.

Results

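The transcriptomes of mouse 2-cell embryos that came from oocytes without Tet3 were compared with those of 2-cell embryos from wild-type oocytes. The comparison rests on 4 of the 8 RNA-seq libraries of the study, the 2 titled as conditional knockout and the 2 titled as wild-type at the 2-cell stage, and on 11751 of 23234 listed genes, those with at least 1 FPKM in at least 2 of the 4 libraries. FPKM is the number of sequenced fragments of a gene, scaled by its length and by the size of the library. The remaining 4 libraries are blastocysts of both genotypes. The title of the study concerns Tet3 and DNA replication in zygotic demethylation, and these libraries ask what loss of oocyte Tet3 changes in the RNA of the embryo.

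The conditional knockout (CKO) females carried Zp3-Cre with a floxed and a null Tet3 allele (f/-), and the wild-type females were f/f, that is, homozygous for the floxed allele. Zp3-Cre is driven by a zona pellucida promoter and acts in the growing oocyte, so the deletion concerns the egg and not the sperm. All eggs came from superovulated females and were fertilized in vitro by CAST/EiJ sperm, so that every embryo of both groups is a hybrid with a paternal Tet3 allele. Zygotes with 2 pronuclei were grown in KSOM medium, and each library was made from a pool of 10 embryos frozen 30 h after fertilization. The labels do not say whether wild-type females carried Cre, nor whether the 2 pools of a genotype had different mothers or collection days. The p-values therefore describe only the spread between pools, those of blastocysts included, and that spread may be technical. In bulk pools, fewer embryos or cells at a stage and less RNA per cell cannot be told apart.

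Tet3 encodes the enzyme that turns 5-methylcytosine into its oxidized forms in the zygote. The mouse 2-cell embryo is where control passes from maternal RNA, stored in the oocyte and then degraded, to RNA made by the embryo's own genome. Oocyte transcripts such as the Tcl1b and Nlrp families are made before fertilization and decline after it. Genes for ribosome production, protein folding and energy supply, by contrast, are among those transcribed during the major wave of genome activation.

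Promoter sequences are shown for genes from either side of the comparison, to mark their CpG dinucleotides, the substrate of DNA methylation and of Tet3. They are examples and do not stand for their side. In promoters of 300 bases, Ddhd1, which rose, had 40 CG, and Kcne3, which fell, had 4. Each is the 250 bases before the gene's start in RefSeq (build GRCm38.p6, plus strand), with every CG in capitals. The first 3 are neighbours of 1 family that rose in Tet3-null embryos (Tcl1b2, chr12:105146769-105147018; Tcl1b3, chr12:105190795-105191044; Tcl1b4, chr12:105202145-105202394), and the other 2 belong to genes that fell (Ergic3, chr2:156007778-156008027; Lgals3, chr14:47373610-47373859).
Tcl1b2: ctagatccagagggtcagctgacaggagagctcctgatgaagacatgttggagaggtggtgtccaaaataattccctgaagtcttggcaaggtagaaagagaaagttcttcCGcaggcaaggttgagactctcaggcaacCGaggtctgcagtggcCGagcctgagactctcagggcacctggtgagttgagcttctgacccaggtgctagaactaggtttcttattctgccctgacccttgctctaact
Tcl1b3: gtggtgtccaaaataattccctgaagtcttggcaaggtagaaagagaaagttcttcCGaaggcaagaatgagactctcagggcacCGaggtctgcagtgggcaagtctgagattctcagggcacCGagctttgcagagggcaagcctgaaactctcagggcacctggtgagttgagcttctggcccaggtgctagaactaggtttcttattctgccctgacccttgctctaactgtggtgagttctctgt
Tcl1b4: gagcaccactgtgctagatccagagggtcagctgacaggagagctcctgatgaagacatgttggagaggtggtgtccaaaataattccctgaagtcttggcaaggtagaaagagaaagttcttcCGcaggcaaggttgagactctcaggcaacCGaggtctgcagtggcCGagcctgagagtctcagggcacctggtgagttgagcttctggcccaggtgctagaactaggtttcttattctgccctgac
Ergic3: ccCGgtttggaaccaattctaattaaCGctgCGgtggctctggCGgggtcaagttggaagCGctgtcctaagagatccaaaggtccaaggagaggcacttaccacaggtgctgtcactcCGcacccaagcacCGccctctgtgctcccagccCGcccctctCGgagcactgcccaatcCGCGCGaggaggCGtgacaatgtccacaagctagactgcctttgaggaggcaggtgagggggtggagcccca
Lgals3: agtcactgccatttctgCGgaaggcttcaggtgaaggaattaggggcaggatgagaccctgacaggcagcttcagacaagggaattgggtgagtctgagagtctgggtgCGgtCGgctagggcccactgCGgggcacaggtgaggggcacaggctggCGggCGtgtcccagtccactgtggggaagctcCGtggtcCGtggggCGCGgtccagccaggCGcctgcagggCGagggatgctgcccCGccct

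The 3 Tcl1b promoters held 3 CG each, and those of Ergic3 and Lgals3 held 13 each. Among 9275 promoters of tested genes cut to the same 250 bases, the median was 15 CG, 12.2% had 3 or fewer and 60% had 13 or more; at least 1 CG, which reads the same on both strands, occurred in 98%. The Tcl1b2 and Tcl1b4 promoters were 89.4% identical in a global alignment, and Tcl1b3 was 66.8% and 61.2% identical to them, so these members share sequence and are not independent of each other. A CG count describes these letters and says nothing about methylation, which was not measured in these libraries.

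The Tet3 gene itself was the check of the labels. Tet3-null replicates 1 and 2 had 3.29 and 4.41 FPKM and wild-type replicates 1 and 2 had 10.8 and 7.54, an order of libraries kept throughout. The groups did not overlap, the mean was 2.38-fold lower, and the test missed its threshold (log2 change -1.06, SE 0.25, adjusted p = 0.0594). Fold values here and below are ratios of mean FPKM, and log2 changes are of FPKM + 1, which understates the change of genes at low levels. The labels do not give the deleted exons, so reads over the rest of the gene, and any transcript of the paternal allele, are included in these values.

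Marker lists were checked against the stage. Of 63 oocyte and maternal-effect genes found in the files, 61 passed the filter, and of 51 genes of the 2-cell stage 47 did. Of 25 cumulus and granulosa markers 20 stayed under 1 FPKM in all 4 libraries, with Amh, Inha, Nr5a1 and Lhcgr at 0 in each, and they summed to 81.8 and 90.8 FPKM against 135 and 121 in wild-type, most of it Gja1. Tnfaip6 of this list was at 14.35 and 24 against 29.5 and 19 FPKM, and Amhr2 at 8.41 and 6.78 against 10.8 and 13.3. Of 26 markers of blood and other somatic cells, 20 stayed under 1 FPKM and Ptprc, Hbb-b1 and S100a8 were at 0 in all 4 libraries, and the sum was 16.8 and 15 against 44.9 and 46 FPKM, most of it Prtn3 and Hba-a2. Of 27 sperm markers 15 stayed under 1 FPKM, with sums of 70.4 and 83.1 against 86.8 and 73.9. Odf2 of this list was at 38.2 and 46.6 against 52.3 and 36.4 FPKM, and Prm2 at 8.52 and 17.15 against 2.47 and 4.43.

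Tet3-null replicate 2 stood apart from the other 3 libraries. Across the 11751 genes its Pearson correlation of log2(FPKM + 1) with the wild-type libraries was 0.921 and 0.914, against 0.955 and 0.957 for Tet3-null replicate 1 and 0.961 between the wild-type libraries. Genes at 0 numbered 7101 in it and 5549 to 6080 in the others, summed FPKM ranged from 600495 to 634816, and small RNA genes took 11.2% of it against 7.23% to 8.38%. The 9 Y-linked genes listed summed to 0.166 FPKM in replicate 2 and to 31.7, 48.5 and 49.1 in the others. The pooled SD of log2 values was 0.54 in Tet3-null and 0.41 in wild-type 2-cell pairs, and 0.25 and 0.29 in the blastocyst pairs. Read totals are not known; the spacing of low values gave relative depths of 1.22, 1.01, 1 and 1.11.

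Differences ran mainly downward in Tet3-null embryos, in weakly and moderately expressed genes, and the calls among the most abundant transcripts were nearly all upward. Of the 11751 genes, 526 (4.48%) were called by limma at an adjusted p of 0.05, 109 higher (0.928%) and 417 lower (3.55%) in Tet3-null. The median log2 change of FPKM + 1 over all genes was -0.19, and 67.3% of genes were below 0. Scaling moved that balance: median-of-ratios scaling, with a median of -0.01, gave 122 higher and 132 lower calls, and quantile normalization gave 111 and 113. Calls under all 3 scalings numbered 183 (1.56%), 87 higher (0.74%) and 96 lower (0.817%). A rule of size without a test asked for a log2 difference of 1 or more and no overlap between groups. It took 795 genes (6.77%), 161 higher (1.37%) and 634 lower (5.4%), but 49.5% of genes did not overlap at any size. All 526 called genes were among these 49.5%, so a lack of overlap adds nothing to a call.

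These calls take their spread from all 8 libraries, and the blastocyst pairs varied less than the 2-cell pairs. With the spread of the 4 two-cell libraries alone, limma called 7 genes (0.0596%), all of them small RNA entries. Each of the 7 was at 0 in both libraries of 1 genotype. In that fit, limma's smallest adjusted p for a gene called with all 8 libraries, small RNA left out, was 0.0565. There 1611 genes had an unadjusted p under 0.05, against 3054 with all 8. With 1 weight per group, 11 genes (0.0936%) were called. No call held in all 4 fits that each left out 1 two-cell library, in which the lone library of a genotype is assumed to vary like the other groups. Calls higher and lower were 895 and 2832 without Tet3-null replicate 1, 87 and 520 without Tet3-null replicate 2, 13 and 12 without wild-type replicate 1, and 7 and 0 without wild-type replicate 2. Every statement below that a protein-coding gene rose or fell refers to the fit with all 8 libraries and shares this limit. The exact permutation test of 2 against 2 libraries cannot go below 0.333.

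**Figure D1:**
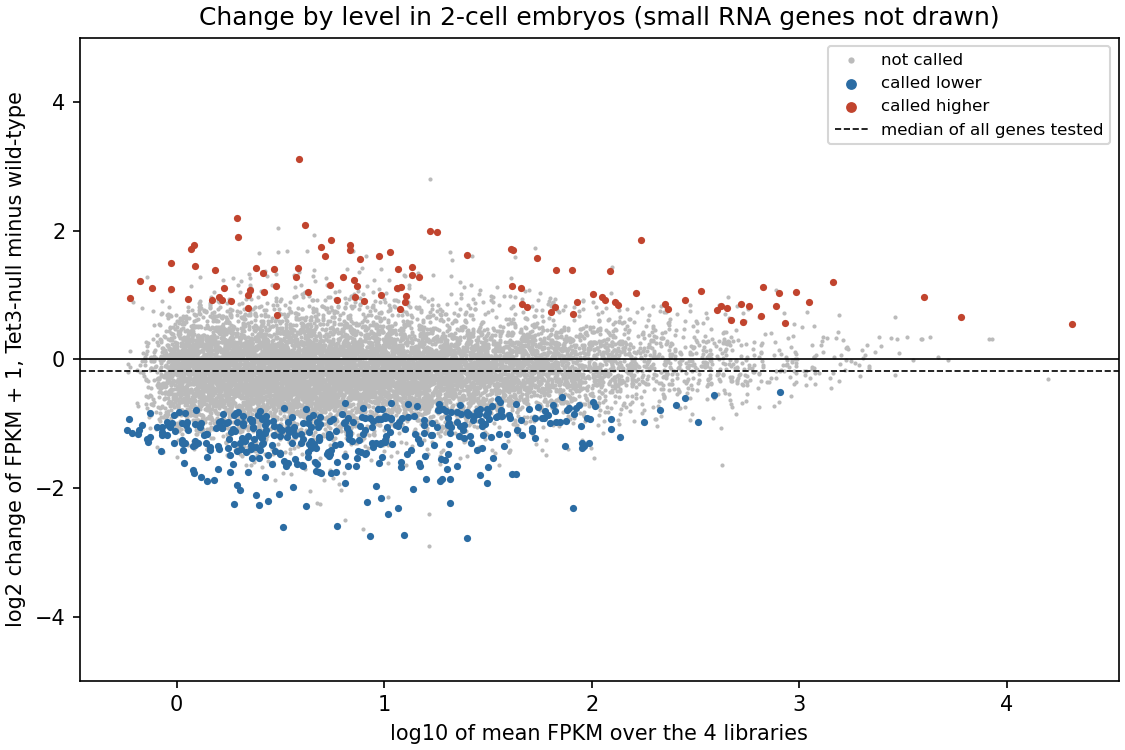
Each point is 1 of the tested genes other than small RNA genes, with log10 of the mean FPKM of the 4 libraries on the x axis and the log2 change of FPKM + 1 (Tet3-null minus wild-type) on the y axis; blue and red mark the genes called lower and higher by limma. Most calls lie below the dashed line, the median of -0.19, but to the right of 500 FPKM nearly all are above 0.

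Level separated the 2 directions. Among the 197 genes with a mean of at least 500 FPKM, 15 rose and 1 fell; among the 1577 genes between 50 and 500 FPKM, 27 rose and 42 fell; and among the 4829 genes under 5 FPKM, 32 rose and 189 fell. The medians of these classes were 0.03, -0.09 and -0.22, and with median-of-ratios scaling 0.24, 0.12 and -0.07; the order of the 3 classes was the same under both scalings, and the middle class changed sign. The 100 most abundant genes took 39.8% and 41.8% of summed FPKM in the Tet3-null libraries against 36.6% and 35.7% in wild-type.

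Calls in both directions took larger shares at the lowest promoter CpG ratios than at the highest. Of the 1073 tested genes whose 300-base promoter had a CpG ratio (observed over expected) under 0.25, 2.05% rose and 3.73% fell; of the 4729 with a ratio of 0.75 or more, 0.634% rose and 2.83% fell. The median ratio was 0.60 for the 81 risers with a promoter sequence, 0.70 for 327 such genes that fell and 0.76 for all 9280. The risers also included more genes silent later: 57 of 109 were under 1 FPKM in all 4 blastocyst libraries, against 86 of the 417 that fell and 19.6% of all genes tested. Level, promoter class and stage of expression overlap in oocyte genes, and their separate parts were not tested.

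**Figure D2:**
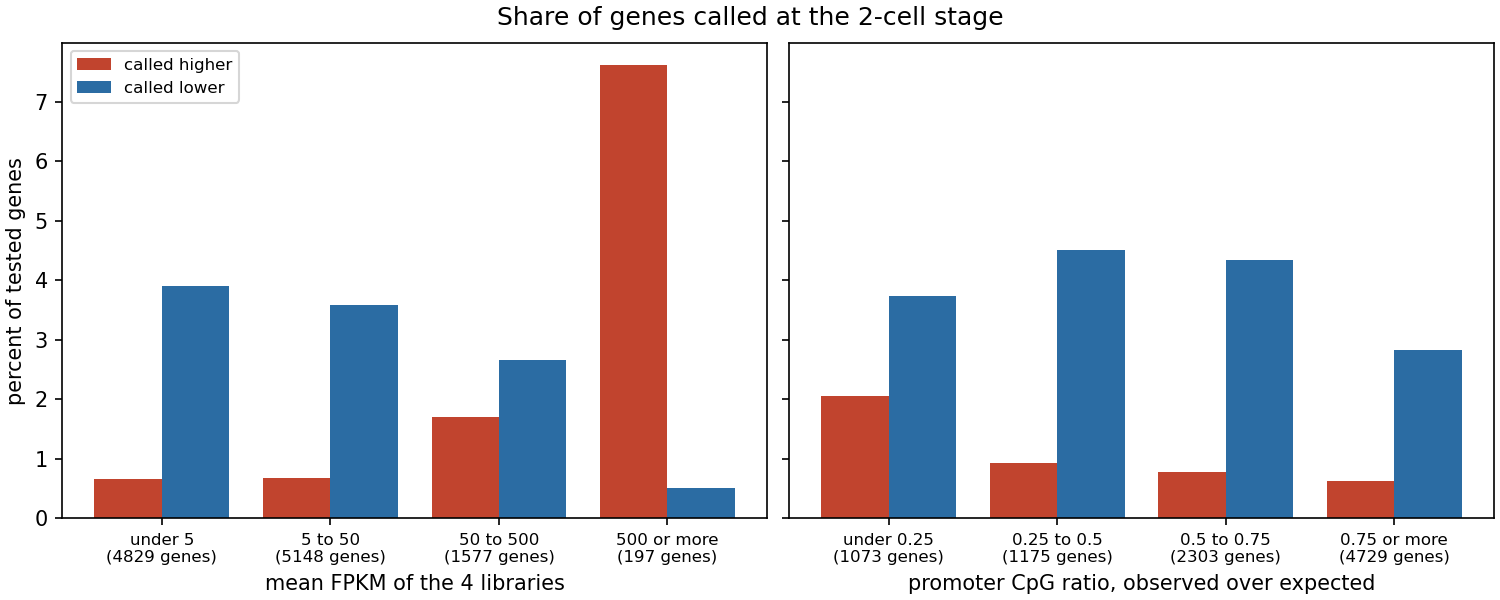
Bars give the percent of tested genes called higher (red) or lower (blue) by limma in Tet3-null 2-cell embryos, by mean FPKM (left) and by promoter CpG ratio (right), with the number of genes under each class. The share called higher is 7.61% at 500 FPKM or more and 2.05% at a CpG ratio under 0.25, the highest bar of each panel among the red ones.

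Maternal transcripts were among the abundant risers. Of 61 oocyte and maternal-effect genes tested, 7 rose and none fell by the limma test, where 0.928% and 3.55% of all genes did; 25 lay above wild-type without overlap and 9 below, where 13.5% and 36.1% of all genes did. The median log2 change was 0.20, against -0.19 for all genes, with 0.40 under median-of-ratios scaling and 0.14 under quantile normalization. Quantile normalization left 2 calls, and without Tet3-null replicate 2 there were 5 higher and 1 lower. The median was 0.35 without Tet3-null replicate 1 and 0.16 without replicate 2, and the mean log2 level was 6.27 and 6.52 in the Tet3-null libraries against 6.30 and 6.09 in wild-type, so in replicate 1 it lay between the wild-type libraries.

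E330034G19Rik, a RIKEN clone on the maternal list, was at 1827 and 2226 FPKM against 943 and 819, 2.3-fold higher (log2 change 1.2, SE 0.16, adjusted p = 0.0233). Rfpl4, an oocyte RING finger gene, was at 793 and 1052 against 401 and 434 FPKM (log2 change 1.13, SE 0.20, adjusted p = 0.0357). Plac1l, also named Oosp2, which encodes a secreted protein of the oocyte, was at 129 and 228 against 74.4 and 57.3 FPKM (log2 change 1.38, SE 0.28, adjusted p = 0.0459). In each of the 3 both Tet3-null libraries were above both wild-type libraries, and in Plac1l the higher value was that of replicate 2, without which the adjusted p was 0.0588.

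The Tcl1 family genes, oocyte-rich relatives of the T-cell leukemia gene Tcl1, act as coactivators of Akt kinase. All 6 were above wild-type without overlap, where 13.5% of all genes were, and 3 of them rose, where 0.928% of all genes did. These 3 are among the 7 risers of the maternal list and add no further calls to it. Tcl1b4 was at 722 and 739 FPKM against 441 and 379, 1.78-fold higher (log2 change 0.84, SE 0.15, adjusted p = 0.035). Tcl1b2 was at 926 and 1039 against 593 and 515 FPKM (log2 change 0.83, SE 0.15, adjusted p = 0.0374), and Tcl1b3 at 795 and 809 against 544 and 465 (log2 change 0.67, SE 0.15, adjusted p = 0.0498). The 2 Tet3-null libraries were within a few percent of each other in Tcl1b3 and Tcl1b4, whose promoters with 3 CG are printed above. Tcl1b1 (1979 and 1845 against 1240.0 and 1135 FPKM), Tcl1b5 (294 and 273 against 206 and 173) and Tcl1 (4231 and 4418 against 4070.0 and 2941) were not called, and the log2 change of Tcl1 turned from 0.32 to -0.12 under quantile normalization. That normalization, which forces one distribution on all libraries, left no member of the family called, with a family median of 0.61 against 0.68 under the deposited scaling.

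Of the Obox homeobox genes, which are expressed from the oocyte to the 2-cell stage, Obox5 had 1220.0 and 1669 FPKM in the Tet3-null libraries against 763 and 782 in wild-type and rose 1.87-fold (log2 change 0.88, SE 0.18, adjusted p = 0.0426). Obox1 was at 122 and 228 against 98.9 and 81.2, Obox3 at 1772 and 1490.0 against 1604 and 1515 and Obox6 at 549 and 409 against 783 and 810.0 FPKM, and none of these was called. Obox1 lay above wild-type, Obox6 below, and the Tet3-null and wild-type values of Obox3 overlapped. Reads of near-identical copies in the Obox, Zscan4, Nlrp and Tcl1b families could have been divided among them, and how they were is not given in the sources used here.

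Of 15 Nlrp genes tested, which encode maternal NLR proteins of the egg cortex and related receptors, none was called, 8 lay above wild-type without overlap and 4 below, against 13.5% and 36.1% of all genes. Their median log2 change was 0.54, and 0.30 without Tet3-null replicate 2. Nlrp4f was at 53.3 and 117 FPKM against 48.9 and 33, with the highest value in replicate 2. The 6 Zscan4 genes, which mark the 2-cell stage, had no call; Zscan4e, the member without overlap, was at 1.67 and 1.82 against 0.943 and 0.497 FPKM. Of 47 genes of the 2-cell-stage list none was called, with a median of 0.03.

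Abundant transcripts outside these families rose as well, of which Dppa3 is already counted among the 7 risers of the maternal list. Dppa3, which encodes the Stella protein that shields maternal methylation, was at 25560.0 and 23210.0 FPKM in the Tet3-null pools against 16290.0 and 16960.0 in wild-type (log2 change 0.55, SE 0.11, adjusted p = 0.0405). Mphosph6, a cofactor of the RNA exosome, was at 5042 and 5518 against 2674 and 2702 FPKM, 1.96-fold higher (log2 change 0.97, SE 0.11, adjusted p = 0.016). Cks2, a small subunit of cyclin-dependent kinase complexes, was at 7073 and 7689 against 4639 and 4709 (log2 change 0.66, SE 0.12, adjusted p = 0.0379). The gap between genotypes was wider than that between replicates in all 3, but quantile normalization ended each call, with log2 changes of 0.23, 0.65 and 0.18. Magoh, of the exon junction complex, was at 953 and 1073 against 659 and 716 FPKM and the unnamed model Gm97 at 1103 and 1492 against 663 and 579.7; both rose.

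RNA-binding and chromatin genes held further risers. Of 23 small nuclear ribonucleoprotein and Lsm genes, 2 rose (8.7%) and 1 fell (4.35%), where 0.928% and 3.55% of all genes did. Their median was 0.11. Lsm7, of the ring of Lsm proteins on RNA ends, was at 569.8 and 564 against 372 and 367 FPKM (log2 change 0.62, SE 0.11, adjusted p = 0.0382), and Lsm3, of the same ring, at 77 and 159 against 41.6 and 42.1 (log2 change 1.38, SE 0.30, adjusted p = 0.0497). Snrpd2, a core protein of spliceosomal particles, fell, at 326 and 298 against 434 and 487 FPKM (log2 change -0.56, SE 0.12, adjusted p = 0.0497). Median-of-ratios scaling ended the calls of Lsm3 and Snrpd2, and quantile normalization that of Lsm3. Hnrnpa1, a splicing regulator, was at 75.8 and 94.3 against 45.3 and 50.4 and rose as 1 of 18 hnRNP genes. Dpy30, a core subunit of the enzymes that methylate histone H3 lysine 4, was at 899.7 and 1252 against 509 and 533 FPKM and was the riser among 32 genes of H3K4 and H3K36 methylation (log2 change 1.02, SE 0.17, adjusted p = 0.0324). Those 32 had a median of -0.32, and no gene was called among 32 Polycomb genes, 32 genes of H3K9 methylation or 43 chromatin remodelers.

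**Figure D3:**
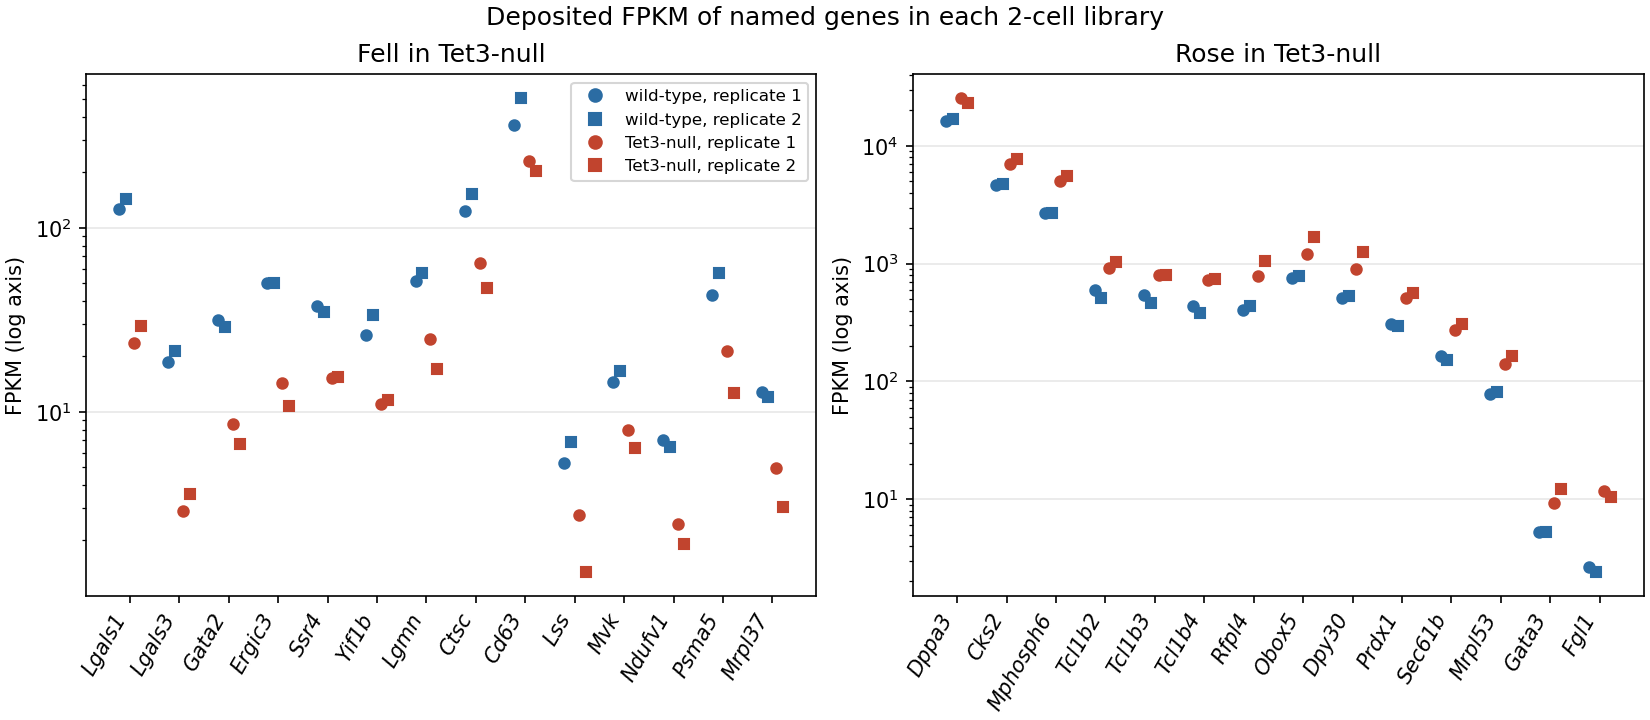
Deposited FPKM (log axis) of named genes in each 2-cell library, with wild-type in blue, Tet3-null in red, circles for replicate 1 and squares for replicate 2; the left panel holds genes that fell and the right panel genes that rose. As in every called gene, both Tet3-null libraries of each gene shown lie on 1 side of both wild-type libraries. The Tet3-null replicates are far apart in Lss (2.75 and 1.35 FPKM) and Psma5 (21.4 and 12.6).

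Several lysosomal genes fell. Of 47 tested, 7 fell (14.9%, against 3.55% of all genes) and none rose. Without overlap 29 lay below wild-type and 2 above, where 36.1% and 13.5% of all genes did, and the median log2 change was -0.51 against -0.19 for all genes. The summed FPKM of the group was 0.599 of the wild-type sum. The median stayed negative under median-of-ratios scaling (-0.33), quantile normalization (-0.37) and without Tet3-null replicate 2 (-0.48), with 4, 4 and 5 members called lower.

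The members that fell included proteases, lipid-handling proteins and membrane glycoproteins. Lgmn, the asparaginyl endopeptidase legumain, had 25 and 17.2 FPKM in the Tet3-null libraries against 51.6 and 56.9 in wild-type, 2.58-fold lower (log2 change -1.34, SE 0.19, adjusted p = 0.0242). Ctsc, the dipeptidyl peptidase cathepsin C, was at 64.7 and 47.3 against 124 and 152 FPKM (log2 change -1.3, SE 0.20, adjusted p = 0.0311). Gm2a, the activator protein for ganglioside breakdown, was at 101 and 66.4 against 189 and 194 (log2 change -1.22, SE 0.20, adjusted p = 0.0324). For these 3 the lower Tet3-null value was that of replicate 2, and the higher one was still under both wild-type libraries. Lipa, the acid lipase that frees cholesterol from its esters, was at 0.0794 and 0.354 against 2.18 and 1.63 FPKM, a low level in all 4 libraries (log2 change -1.26, SE 0.20, adjusted p = 0.0315). Cd63, an abundant tetraspanin of late endosomes, fell as well, at 230.4 and 204 against 364 and 507 FPKM. Cd68, a lysosomal glycoprotein rich in macrophages and picked once its value had been seen, was at 2.0 and 2.08 against 4.82 and 5.83 and fell. Atp6v1d, a subunit of the proton pump that acidifies the lysosome, fell, at 26.5 and 28.4 against 54.6 and 65.7 FPKM (log2 change -1.1, SE 0.14, adjusted p = 0.0216). It was the 1 call among 19 pump subunits, whose median was -0.30.

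Autophagy genes, whose products carry cargo to lysosomes, had 3 of 40 lower (7.5%, against 3.55% of all genes) and none higher, with a median of -0.35. Atg9a, the lipid scramblase of the growing autophagosome, was at 4.51 and 3.1 FPKM against 8.95 and 10.6 (log2 change -1.17, SE 0.20, adjusted p = 0.0333). Calcoco2, a cargo receptor, was at 36.9 and 20.4 against 61.5 and 65.2, and Atg4b, the protease that processes Atg8 proteins, at 8.74 and 6.54 against 14.3 and 17.6, and both fell. Under median-of-ratios scaling 1 of the 40 was called and under quantile normalization none was.

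Genes of cholesterol synthesis fell at 4 steps of the pathway. Of 22 tested, 4 fell (18.2%, against 3.55% of all genes) and none rose. Without overlap 12 were below wild-type and none above, where 36.1% and 13.5% of all genes were, and the median was -0.49. Mvk, mevalonate kinase, was at 7.97 and 6.39 FPKM in the Tet3-null pools against 14.5 and 16.7 in wild-type, 2.17-fold lower (log2 change -1.02, SE 0.19, adjusted p = 0.039). Fdps, which makes farnesyl diphosphate, was at 20.5 and 15.6 against 33.5 and 37.6 FPKM (log2 change -0.95, SE 0.18, adjusted p = 0.0405). Sqle, the rate-limiting squalene epoxidase, was at 13.8 and 15.9 against 24.5 and 29.5 (log2 change -0.82, SE 0.17, adjusted p = 0.0448), and Lss, which closes the sterol rings, at 2.75 and 1.35 against 5.3 and 6.82 (log2 change -1.24, SE 0.25, adjusted p = 0.0436). The 4 calls were lost under median-of-ratios scaling and quantile normalization, where the median was -0.29 and -0.30. Without Tet3-null replicate 2 the log2 changes of Mvk, Fdps, Sqle and Lss were -0.88, -0.76, -0.92 and -0.90.

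**Figure D4:**
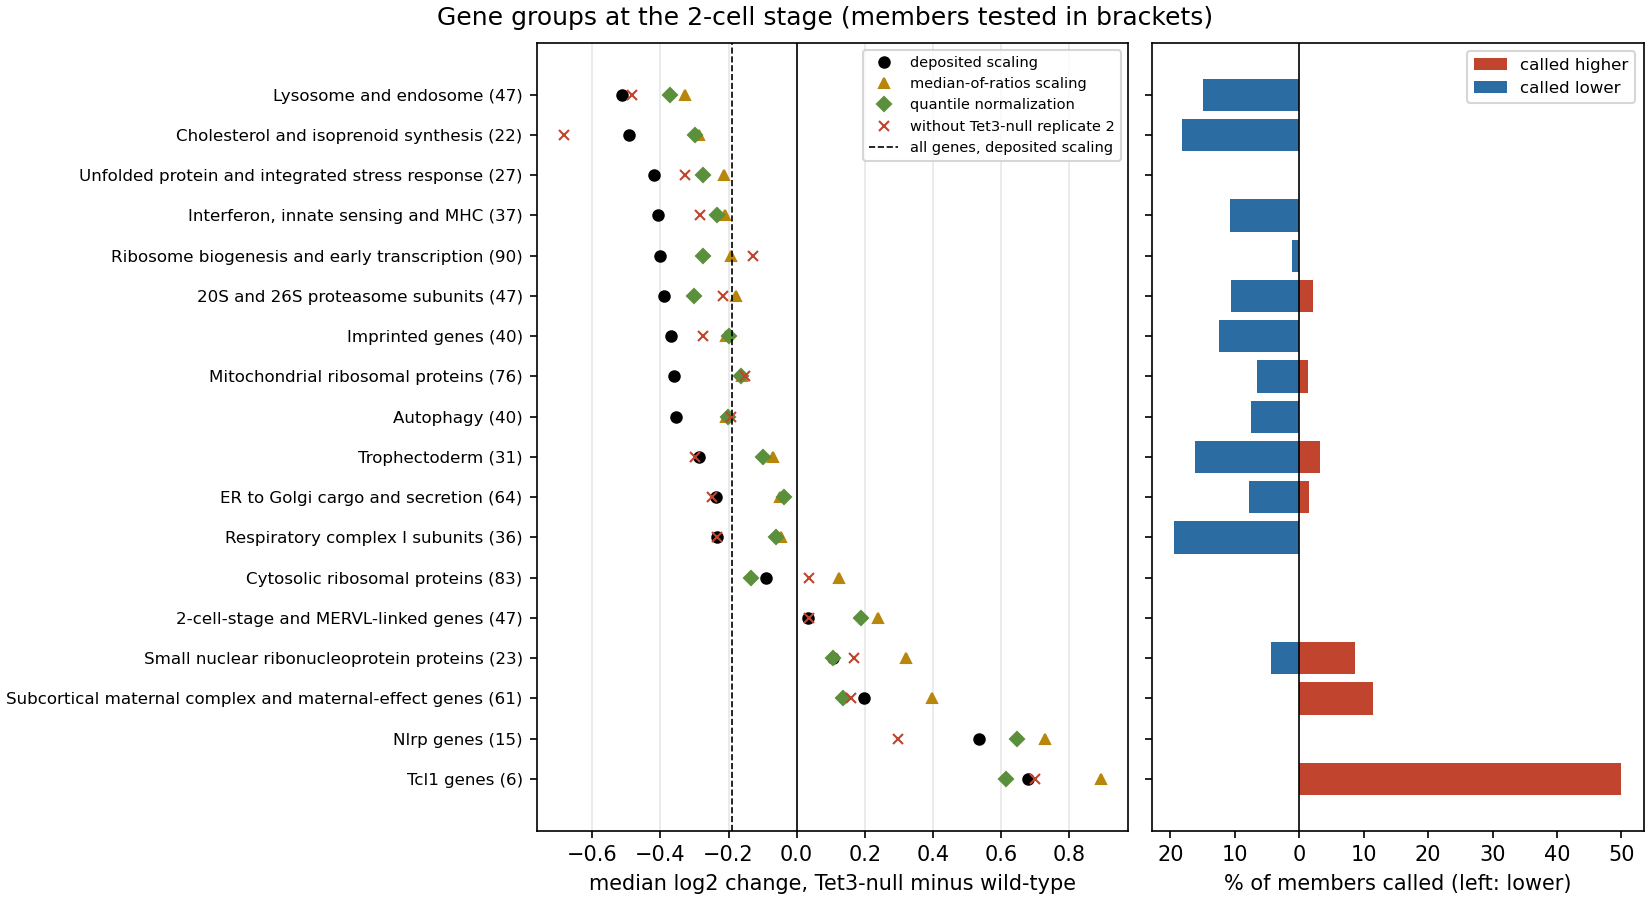
The left panel gives the median log2 change (Tet3-null minus wild-type) of 18 gene groups under the deposited scaling, 2 other scalings and without Tet3-null replicate 2, with the median of all genes as a dashed line; the right panel gives the percent of tested members called higher (red, right) and lower (blue, left). Lysosomal and cholesterol genes have the lowest medians under the deposited scaling, -0.51 and -0.49, and Tcl1 genes the highest, 0.68.

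Genes of the secretory pathway included some of the falls that held under the most settings. Of 64 genes of transport between endoplasmic reticulum and Golgi, 5 fell (7.81%) and 1 rose, where 3.55% and 0.928% of all genes did, and the median of -0.24 was near that of all genes. Ergic3, a cargo receptor of the compartment between the 2 organelles, had 14.3 and 10.7 FPKM in the Tet3-null libraries against 49.95 and 49.9 in wild-type, 3.98-fold lower (log2 change -1.93, SE 0.16, adjusted p = 0.00557). Yif1b, a membrane protein of the same route, was at 11 and 11.6 against 26.3 and 33.5 FPKM (log2 change -1.32, SE 0.16, adjusted p = 0.0177), and Rabac1, an acceptor of prenylated Rab proteins, at 23.7 and 24 against 53.2 and 56 (log2 change -1.16, SE 0.15, adjusted p = 0.0194). Ssr4, a subunit of the translocon-associated complex, was at 15.3 and 15.4 against 37.6 and 35.1 (log2 change -1.19, SE 0.12, adjusted p = 0.014). The replicates of each genotype lay close together in these 4, and all 4 stayed called under both other scalings. Sec61b, a small subunit of the translocon, picked once its value had been seen, rose, at 271 and 309.7 against 165 and 154 FPKM.

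None of 27 genes of the unfolded protein and integrated stress response was called, and 18 lay below wild-type without overlap, against 36.1% of all genes, with a median of -0.42. P4hb, the protein disulfide isomerase, was at 22.9 and 15.7 FPKM against 31.3 and 47. Of 41 heat shock and chaperone genes 2 fell (4.88%) and 1 rose (2.44%), where 3.55% and 0.928% of all genes did. Hspa13, an ATPase of the endoplasmic reticulum, fell, at 0.427 and 0.49 against 3.8 and 2.51. Trap1, a mitochondrial Hsp90, fell, at 10.7 and 8.86 against 16.4 and 16.2. Hspe1, the mitochondrial co-chaperonin, rose, at 256 and 332 against 177 and 163.

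Proteasome genes had falls in the core ring, the immunoproteasome and its activator. Of 47 tested, 5 fell (10.6%, against 3.55% of all genes) and 1 rose, and the summed FPKM was 0.736 of that in wild-type; the median was -0.39, with -0.58 without Tet3-null replicate 1 and -0.22 without replicate 2. Psma5, of the alpha ring, was at 21.4 and 12.6 FPKM against 43.1 and 56.6 (log2 change -1.53, SE 0.25, adjusted p = 0.0315). Psmb10, a beta subunit of the immunoproteasome, was at 9.48 and 10.5 against 20.9 and 21.5 (log2 change -1.02, SE 0.15, adjusted p = 0.0294), and Psme2, of its activator, at 36.1 and 26.5 against 59 and 61.7 (log2 change -0.94, SE 0.18, adjusted p = 0.0405). Psmg4, an assembly chaperone, was at 12.6 and 22.3 against 4.7 and 6.99 FPKM and rose (log2 change 1.4, SE 0.28, adjusted p = 0.0426). Under either of the other scalings 1 member was called lower.

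In the mitochondrion, 7 of 36 nuclear genes of complex I, the NADH dehydrogenase, fell (19.4%, against 3.55% of all genes) and none rose. Without overlap 7 lay above wild-type and 18 below, where 13.5% and 36.1% of all genes did. The median of -0.23 and the summed FPKM, 1.05 of wild-type, were close to the median of all genes and to the wild-type sum. Ndufv1, the flavoprotein that accepts electrons from NADH, was at 2.46 and 1.92 FPKM in the Tet3-null pools against 7.0 and 6.44 in wild-type, 3.06-fold lower (log2 change -1.28, SE 0.15, adjusted p = 0.0174). Ndufb7, a membrane-arm subunit, was at 41.7 and 23.2 against 71 and 77 (log2 change -1.22, SE 0.24, adjusted p = 0.0431). In the peripheral arm, Ndufs4 fell, at 3.56 and 4.23 against 8.42 and 10.1 FPKM. Ndufs7 of the same arm was at 14.8 and 11.9 against 23.7 and 31.8 and fell. The other scalings left 1 of the 7 calls each.

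Of 76 mitochondrial ribosomal proteins 5 fell (6.58%, against 3.55% of all genes) and 1 rose, with a median of -0.36. Mrpl37 was at 4.95 and 3.02 FPKM against 12.8 and 12 (log2 change -1.45, SE 0.20, adjusted p = 0.0246), Mrps12 at 20.2 and 18.7 against 42.3 and 50.1 (log2 change -1.2, SE 0.17, adjusted p = 0.0246), and Mrpl53, the riser, picked once its value had been seen, at 140.0 and 164 against 77.5 and 81.8 (log2 change 0.92, SE 0.13, adjusted p = 0.0262). Atp5o, of the ATP synthase stalk, fell, at 70.6 and 46.5 against 107 and 132 FPKM, and Atp5l, of its membrane part, rose, at 147 and 189 against 82.8 and 96.1. Timm13, a chaperone of protein import, fell, at 14.2 and 7.18 against 29.6 and 30.5, with 13 of 20 import genes below wild-type without overlap, against 36.1% of all genes. The 83 cytosolic ribosomal proteins had no call and a median of -0.09, which was 0.12 with median-of-ratios scaling and 0.04 without Tet3-null replicate 2.

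Ribosome biogenesis genes, strongly transcribed at genome activation, were low in 1 library. Of 90 genes 1 fell, Nat10, the RNA acetyltransferase of the nucleolus, at 3.98 and 2.8 FPKM against 7.22 and 7.79 (log2 change -0.97, SE 0.19, adjusted p = 0.0426), and 42 lay below wild-type without overlap, against 36.1% of all genes. The median of -0.40 was -0.69 without Tet3-null replicate 1 and -0.13 without replicate 2. The mean log2 level of the group was 5.36 and 4.82 in the Tet3-null libraries against 5.40 and 5.57 in wild-type, so Tet3-null replicate 2 was the low library and replicate 1 lay close to wild-type.

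Antioxidant genes were called in both directions, and 1 one-carbon gene rose. Prdx1, the cytosolic peroxiredoxin that removes hydrogen peroxide, had 514 and 560.0 FPKM in the Tet3-null libraries against 308 and 297 in wild-type and rose (log2 change 0.82, SE 0.13, adjusted p = 0.031). Mgst3, a microsomal glutathione transferase, rose from 202 and 185 to 392 and 344 (log2 change 0.92, SE 0.15, adjusted p = 0.0316), and Prdx3, the mitochondrial peroxiredoxin, fell, at 5.33 and 4.26 against 10.7 and 16.3 (log2 change -1.3, SE 0.21, adjusted p = 0.0319). The other 36 of 39 antioxidant genes were not called, so that 7.69% were called, against 4.48% of all genes. Mthfs, which returns a stored folate to the one-carbon pool, rose, at 51.7 and 62.6 against 25.5 and 25.3 FPKM (log2 change 1.13, SE 0.16, adjusted p = 0.0242). It was the call among 30 genes of the methionine and one-carbon cycle (3.33%, under the share of all genes), whose median was -0.11. Of 34 genes of fat oxidation and lipid storage, Fabp6, a bile acid-binding protein, fell, at 0 and 0.771 against 5.78 and 4.51, Cpt1a, the gate of mitochondrial fat oxidation, fell, at 1.07 and 1.13 against 3.05 and 2.46, and Fabp5, a fatty acid-binding protein, rose, at 75.1 and 83.9 against 42.5 and 52.1.

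Among genes of the later lineages, several genes of the trophectoderm list fell. Of 31 tested, 5 fell (16.1%, against 3.55% of all genes) and 1 rose, with a median of -0.29 and a summed FPKM 0.602 of that in wild-type. Lgals1, a galectin that binds surface galactosides, was at 23.6 and 29.2 FPKM in the Tet3-null pools against 126 and 144 in wild-type (log2 change -2.32, SE 0.19, adjusted p = 0.00557). Lgals3, a chimeric galectin, was at 2.9 and 3.58 against 18.6 and 21.3 (log2 change -2.31, SE 0.19, adjusted p = 0.00557). Both fell under all 3 scalings, and their Tet3-null values lay several-fold under the lower wild-type one. Of the other galectins tested, Lgals9 was at 3.69 and 4.49 against 2.65 and 2.1 FPKM and Lgals8 at 2.75 and 3.78 against 4.7 and 4.31, and Lgals4 at 7.15 and 4.36 against 0.444 and 3.63, with no call. The remaining members, Lgals2, Lgals6 and Lgals12, overlapped between genotypes. Gm2a, described with the lysosome, is also on the trophectoderm list.

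Gata2, a transcription factor of trophoblast and blood, was at 8.59 and 6.73 FPKM against 31.7 and 28.8, 3.95-fold lower (log2 change -1.86, SE 0.16, adjusted p = 0.00726). Gata3, which acts beside it in the trophectoderm, went the other way, at 9.26 and 12.3 against 5.28 and 5.26 (log2 change 0.90, SE 0.17, adjusted p = 0.0384). Gata1 was at 18.7 and 8.49 against 15.7 and 15.8, Gata4 at 12.7 and 4.54 against 12.1 and 16.4 and Gata6 at 1.98 and 1.95 against 1.42 and 1.4 FPKM, none of them called. Krt18, an intermediate filament of simple epithelia, fell, at 6.15 and 4.27 against 11.9 and 9.13 (log2 change -0.90, SE 0.19, adjusted p = 0.0482), but kept that call in 1 of 11 alternative settings. Zfp42, a pluripotency marker also called Rex1, was the 1 gene called among 34 of the epiblast list, at 28.1 and 24.8 against 42.3 and 50.8. Blood markers moved with these falls, as given above: Prtn3, a protease of neutrophils, was at 3.93 and 1.64 against 16.4 and 19.7 FPKM and fell, while Ptprc and S100a8 were at 0 in all 4 libraries. The part of blood cells in these values was not tested.

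Of 40 imprinted genes tested, 5 fell (12.5%, against 3.55% of all genes) and none rose, with a median of -0.37. Under each of the other scalings 3 were called lower. Cdkn1c, a cyclin-dependent kinase inhibitor expressed from the maternal allele, was at 12 and 6.64 FPKM against 29.7 and 27 (log2 change -1.56, SE 0.26, adjusted p = 0.0331). Dio3, the deiodinase that inactivates thyroid hormone, was at 1.46 and 0.98 against 5.3 and 4.87 (log2 change -1.46, SE 0.18, adjusted p = 0.0189), Impact, a regulator of translation, at 7.14 and 5.57 against 17.4 and 21.4 (log2 change -1.47, SE 0.18, adjusted p = 0.0189), and Ube3a, a ubiquitin ligase, at 7.1 and 4.5 against 17 and 12 (log2 change -1.2, SE 0.25, adjusted p = 0.0481). Ube3a missed the threshold under both other scalings. The paternal genome is of another strain, but gene-level FPKM do not separate the alleles.

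Of 37 interferon, innate sensing and MHC genes, 4 fell (10.8%, against 3.55% of all genes) and none rose, with a median of -0.41. Psmb10, already counted with the proteasome, is 1 of the 4. Blood and somatic markers were lower beside them, with sums of 16.8 and 15 against 44.9 and 46 FPKM, and their part in this group was not tested. Isg20, an RNA exonuclease, was at 2.01 and 0 FPKM against 7.8 and 7.04 (log2 change -2.28, SE 0.45, adjusted p = 0.0426), Zbp1, a sensor of Z-form nucleic acids, at 0.48 and 0.892 against 4.35 and 2.88 (log2 change -1.45, SE 0.24, adjusted p = 0.0326), and Ifitm1, a membrane restriction factor, at 4.15 and 4.72 against 10.6 and 15.7 (log2 change -1.36, SE 0.25, adjusted p = 0.039). Outside this list, Fcgrt, the neonatal Fc receptor, was at 5.29 and 4.4 against 21 and 24.4 FPKM, 4.68-fold lower (log2 change -2.02, SE 0.18, adjusted p = 0.00819). Quantile normalization left none of the 4 interferon calls, and the Fcgrt call held under both scalings.

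Transport and channel genes were called at different rates. Of 161 solute carriers, 7 fell (4.35%), near the 3.55% of all genes, and none rose, where 0.928% of all genes did; the median was -0.26. None of 19 ABC transporters was called. Slc27a2, a transporter and activator of long-chain fatty acids, was at 4.91 and 5.12 FPKM against 14.5 and 13.5 (log2 change -1.32, SE 0.22, adjusted p = 0.0324), and Slc2a8, a sugar transporter of internal membranes, at 0.293 and 1.13 against 3.85 and 2.9 (log2 change -1.39, SE 0.28, adjusted p = 0.0426). Of 17 potassium channel genes 3 fell: Kcne3, a regulatory subunit, was at 1.97 and 1.02 against 17.1 and 13.9 FPKM, 10.4-fold lower (log2 change -2.75, SE 0.23, adjusted p = 0.00557), Kcnk5 was at 0.866 and 0.208 against 2.19 and 3.8 and Kcnk18 at 1.22 and 0.908 against 3.25 and 2.93, both pore subunits of leak channels. Kcne3 was called in 9 of 11 alternative settings and the other pair in 3 each.

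Among the largest falls were 2 structural genes of cilia and sperm tails. Tekt2, a filament protein of the axoneme, was at 7.5 and 6.89 FPKM against 24.5 and 35.4 (log2 change -1.9, SE 0.21, adjusted p = 0.0158), and Rsph9, of the radial spoke, at 2.2 and 2.04 against 10.9 and 10.7 (log2 change -1.92, SE 0.22, adjusted p = 0.0158). Cypt12, a testis gene, was at 1.49 and 3.21 against 12.6 and 15.7 (log2 change -2.21, SE 0.27, adjusted p = 0.0177). Of 27 tested genes with symbols of axonemal or ciliary families, a set chosen after these values were seen, 2 fell and none rose. Of all genes 3.55% fell and 0.928% rose. The median of the 27 was -0.27. Tex19.2, a germline gene under promoter methylation, was at 2.11 and 2.74 against 8.25 and 8.72 and fell. Dmc1, the meiotic recombinase, was at 1.37 and 1.55 against 3.44 and 3.56 and fell. Of 50 such germline genes 3 fell (6%, against 3.55% of all genes) and none rose.

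Genes of genome maintenance and cell division were called at shares near the 4.48% of all genes, 3.45% for DNA repair, 5.36% for replication and 2.94% for mitosis. Of 58 DNA repair genes 2 fell: Xrcc6, the Ku70 end-binding protein, at 1.09 and 0.704 FPKM against 3.33 and 4.5 (log2 change -1.37, SE 0.20, adjusted p = 0.0262), and Mre11a, a nuclease of double-strand breaks, at 2.23 and 1.75 against 5.27 and 4.54 (log2 change -0.98, SE 0.19, adjusted p = 0.0401). Of 56 replication genes Rpa3, of the single-strand binding complex, rose, at 102 and 99.9 against 59.5 and 63.6, and Gins2, of the replicative helicase, fell, at 44.6 and 37.3 against 64.4 and 73.4, as did Rfc4, of the clamp loader, at 9.01 and 5.81 against 15.3 and 16.6. Smc2, a condensin ATPase, fell, at 3.05 and 3.58 against 9.25 and 7.44, and Cdc25b, the phosphatase that starts mitosis, fell, at 0.937 and 1.12 against 3.9 and 2.43. Of 91 genes of RNA polymerase II transcription 3 fell, led by the elongation factor Ell3, at 3.67 and 2.38 against 11.7 and 11.4 (log2 change -1.66, SE 0.19, adjusted p = 0.0168), and of 60 genes of maternal mRNA decay Cnot7, a deadenylase, rose, at 149.7 and 196 against 103 and 87, and Btg2, a cofactor of deadenylation, fell, at 12.9 and 15.7 against 27.1 and 24. Of 262 Zfp zinc finger genes 10 fell (3.82%, near the 3.55% of all genes), with a median of -0.16, and Zfp572 rose, at 4.06 and 5.35 against 1.74 and 0.676 FPKM.

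Further large changes were found in genes not yet described. Schip1, a partner of schwannomin, was at 25.7 and 32.4 FPKM in Tet3-null against 4.81 and 8.9 in wild-type (log2 change 1.98, SE 0.27, adjusted p = 0.0242). Batf3, a transcription factor of dendritic cells, was at 4.71 and 10.2 against 1.2 and 0.601 and rose, with the higher value in replicate 2 (log2 change 2.09, SE 0.40, adjusted p = 0.0405). Fgl1, a secreted fibrinogen relative, had 11.8 and 10.4 against 2.67 and 2.4 FPKM and rose. Ddhd1, a phospholipase, rose from 18.9 and 17.8 to 53.2 and 73.3, and Tac2, a tachykinin precursor, from 28.7 and 23.9 to 62.1 and 103. Selp, the adhesion molecule P-selectin, rose from 2.45 and 2.67 to 7.35 and 14.8, and Nt5c3, a pyrimidine nucleotidase, from 1.67 and 1.59 to 5.82 and 6.21. As in every called gene, the groups did not overlap in these. Epdr1, a secreted ependymin relative, rose from 0.236 and 0.256 to 2.92 and 4.52. Ctnna3, a catenin of heart junctions, rose from 6.38 and 7.01 to 15.2 and 25.7, and E2f6, a repressor of the E2F family, from 0 and 0.336 to 1.46 and 3.08 (log2 change 1.45, SE 0.28, adjusted p = 0.0405). Sprr2e, Myl2 and Hist2h2ac were listed at 0 in both wild-type libraries and passed the filter only through Tet3-null, with Myl2, a myosin light chain of the heart, at 2.58 and 2.28 FPKM in Tet3-null. Defb13, a beta-defensin, was also at 0 in wild-type and at 8.91 and 6.62 in Tet3-null, and passed in the same way. Epdr1, E2f6 and the uncalled Zscan4e were under 1 FPKM in both wild-type libraries and likewise passed only through Tet3-null. Of the tested genes 12 were above 0 in both Tet3-null and at 0 in both wild-type libraries, and 13 the reverse.

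In the other direction, Prph, the intermediate filament peripherin, was at 0.251 and 0.157 FPKM against 4.41 and 5.17, 23.4-fold lower (log2 change -2.26, SE 0.26, adjusted p = 0.0158). Tnni2, a troponin of fast muscle, had 3.73 and 3.82 FPKM in wild-type and 0 in each Tet3-null library. Nppb, a natriuretic peptide, was at 0 and 0 against 1.96 and 3.63 (log2 change -1.89, SE 0.24, adjusted p = 0.0192). Adipoq, the hormone adiponectin, was at 0.149 and 0 against 2.99 and 2.91 (log2 change -1.88, SE 0.19, adjusted p = 0.0144). Cox7b2, a cytochrome oxidase subunit, was at 0.614 and 0 against 3.99 and 5.08, and Coro1a, an actin regulator of blood cells, at 0.248 and 0.918 against 5.38 and 5.85, and both fell. All 6 were under 1 FPKM in both Tet3-null libraries and passed the filter only through wild-type. The same held for Lipa, Zbp1, Hspa13, Fabp6 and Kcnk5, described above. At high levels, Oaz1, the antizyme that restrains polyamine synthesis, was at 663 and 666 FPKM against 912 and 984 and was the 1 fall above 500 FPKM (log2 change -0.51, SE 0.11, adjusted p = 0.0481). Cstb, the protease inhibitor cystatin B, was at 209 and 239.7 against 320.3 and 362 (log2 change -0.60, SE 0.13, adjusted p = 0.0497). Bcap31, a sorting chaperone of the endoplasmic reticulum, was at 198 and 188 against 324 and 308 (log2 change -0.71, SE 0.11, adjusted p = 0.0314). None of these 3 abundant genes was called under median-of-ratios scaling. Deb1 fell as well, at 149.5 and 159.7 against 238 and 304 FPKM, as did the clone 1810029B16Rik, at 128 and 113 against 229.7 and 247.

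Small RNA entries made up a class of their own. Of 127 tested, 5 were above 0 in both Tet3-null libraries and at 0 in both wild-type libraries, 3 were the reverse, and 48 were at 0 in exactly 1 library of a genotype. The cDNA was made by a kit that primes on poly(A) RNA, which mature small RNAs lack, so these FPKM are not levels of the mature forms, and values over such short intervals are unstable. The mature sequences of 3 of the microRNA entries, 5′ to 3′ from RefSeq (GRCm38.p6) with the seed (bases 2 to 8) in capitals, show what the entries are named for.
mmu-miR-742-3p: gAAAGCCAccaugcuggguaaa
mmu-miR-24-3p: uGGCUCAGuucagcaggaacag
mmu-miR-3074-5p: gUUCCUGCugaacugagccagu

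No 2 of these seeds are alike. Mir742 (chrX:66780376-66780397 for the mature form, minus strand) had 252 and 579.6 FPKM in the Tet3-null libraries and 0 in both wild-type ones. Mir24-1, picked once its value had been seen, had 246 and 224 FPKM in wild-type and 0 in each Tet3-null library, and missed the threshold with all 8 libraries (adjusted p = 0.137 by limma). Mir3074-1 was at 0 against 61.2 and 112. Their mature forms lie on opposite strands of 1 locus (chr13:63301251-63301272, plus strand, and chr13:63301249-63301270, minus strand), and 20 of the 22 bases of miR-24-3p pair with miR-3074-5p, so in a library that does not keep strand the same fragments can count for both. Snord47, a C/D box snoRNA entry, was at 0 against 583 and 532 FPKM, and Snord55 and Snord11 were at 245 and 289.9 and at 337 and 769 against 0. These 6 entries and Mir690, at 29.3 and 15.9 FPKM against 0, were the 7 calls of the 4 two-cell libraries alone. All 7 were at 0 in both libraries of 1 genotype and passed the filter only through the other. Replicates that are both at 0 also show no spread. Mir697, at 14.7 and 33.8 FPKM against 0, passed in the same way and rose in the fit with all 8 libraries. Mir1956, which was above 0 in all 4 libraries, was at 2495 and 1962 against 1021 and 924 and rose (log2 change 1.19, SE 0.16, adjusted p = 0.0233).

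The difference between the 2-cell effect and the blastocyst effect of the genotype was called by limma for 13 genes (0.111%), 12 of them among the 526 calls, and the blastocyst comparison itself called 3 of the same 11751 genes (0.0255%). For the other calls a difference between stages was not shown. Ergic3 was at 184 and 186 FPKM in the Tet3-null blastocyst pools against 168 and 168 in wild-type, and its difference between stages was called. Lgals1 was at 797 and 753 FPKM in the Tet3-null blastocyst pools against 1001 and 721 in wild-type, which overlapped, and its difference between stages missed the threshold. Gata2 was at 27.5 and 29.96 FPKM in the Tet3-null blastocyst pools against 50.3 and 48.3 in wild-type, with both Tet3-null libraries lower there too. Lgmn was at 127 and 126 FPKM in the Tet3-null blastocyst pools against 133 and 124 in wild-type, which overlapped between genotypes, and Tcl1b4 was under 0.1 FPKM in all 4 blastocyst libraries.

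**Figure D5:**
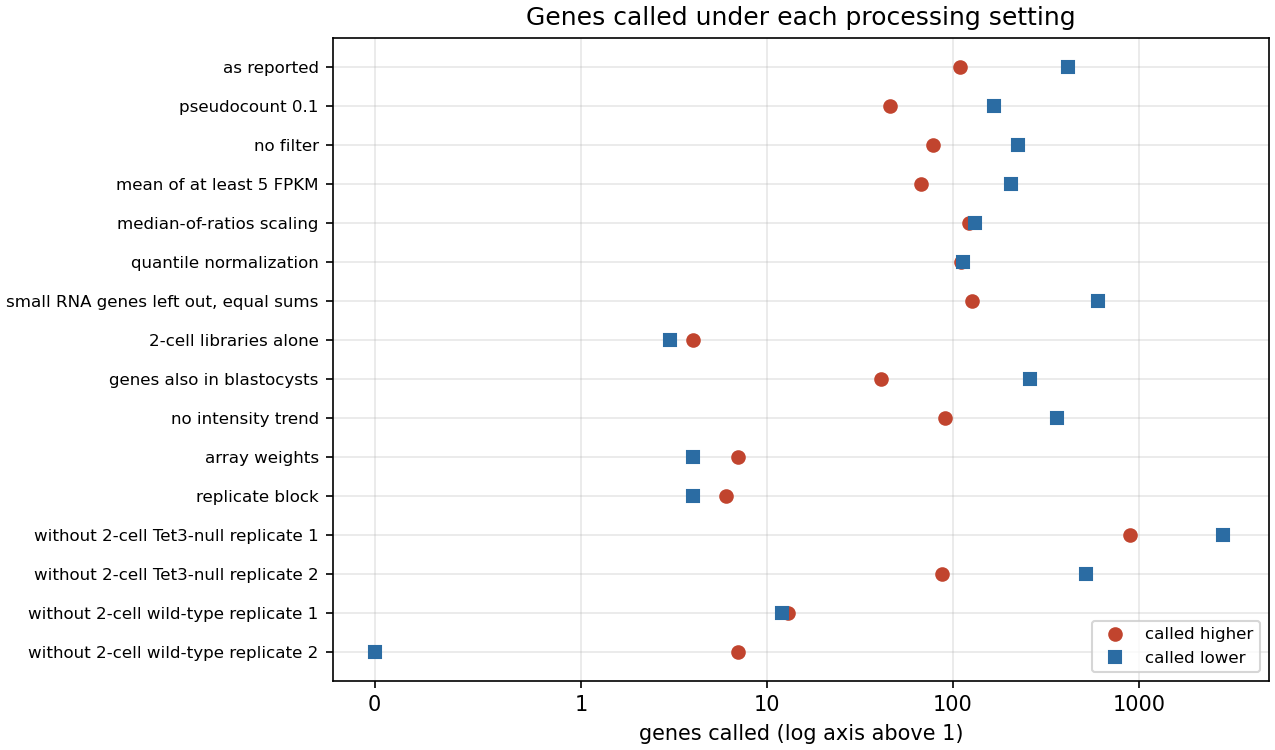
The number of genes called higher (red circles) and lower (blue squares) in Tet3-null 2-cell embryos is shown on a log axis (linear below 1) for the reported fit and each alternative setting. Counts fall from 109 and 417 to 4 and 3 with the 2-cell libraries alone, and range from 895 and 2832 without Tet3-null replicate 1 to 7 and 0 without wild-type replicate 2.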

How the data were processed

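RNA of pooled mouse embryos was amplified with a SMARTer low-input kit and sequenced without strand information. The authors deposited FPKM for 23234 genes in each of 8 libraries, per the submitters' processing notes with Cufflinks 2.2.0 after alignment by TopHat2 2.0.10 (Bowtie2 2.1.0) to mm9. Annotation, settings and how reads of close copies were divided were not given in the sources used here. Read totals are unknown, so no counting intervals are given.

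Genes reaching 1 FPKM in 2 or more of the 4 two-cell libraries were kept, and log2(FPKM + 1) was fitted with limma 3.58.1 (R 4.3.3) on all 8 libraries with 4 group means, empirical Bayes moderation and an intensity trend. Tests were two-sided with Benjamini-Hochberg adjustment over 11751 genes, with calls at adjusted p under 0.05. Every adjusted p is limma's. The fit was also run on simulated data in which all groups had the same spread. That run cannot show how the unequal spreads of the real groups affect the calls. Gene names were matched to RefSeq (GRCm38.p6), 20645 by symbol and 2345 by synonym. No coordinates of the deposited build are printed.

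The gene lists, families and genes were chosen with earlier results of these data known. Genes named are Tet3, Dppa3, the 15 largest changes each way that both other scalings also called, the 8 most abundant calls each way, up to 4 called members of a list, the largest uncalled member without overlap where none was called, and small families in full; others are said to be named after their values were seen. Alternatives were other scalings, pseudocount, filters, fits and left-out libraries.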

Additional observations from a re-analysis of the deposited data

Results flagged for a closer look

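The effect of the genotype differed between the 2-cell and the blastocyst stage, by limma's test of that difference, for 10 of the genes named above. The values are the 2-cell change minus the blastocyst change on the log2(FPKM + 1) scale. Among protein-coding genes the value was 3.12 for Defb13, -2.84 for Kcne3, -2.31 for Fcgrt and -2.06 for Ergic3. Defb13 was at 0 FPKM in all 4 blastocyst libraries, and Kcne3 at 0.036 and 0.101 in Tet3-null and 0 in wild-type blastocysts. With next to no blastocyst transcript, the values of Defb13 and Kcne3 restate their 2-cell change. Among small RNA entries the value was -9.92 for Snord47, 8.58 for Mir742, 4.54 for Mir697, 8.0 for Mir690, 8.99 for Snord11 and 8.06 for Snord55. Each of these entries was at 0 in both 2-cell libraries of 1 genotype. With small RNA genes left out and the libraries rescaled to equal sums, 1 stage difference was called in all, so at most 1 of the 4 protein-coding genes kept its call there.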

How the results depend on the processing

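Counts of calls depended on the estimate of spread and on scaling. From 109 higher and 417 lower, the limma counts went to 46 and 167 with a pseudocount of 0.1, 67 and 205 for genes with a mean of at least 5 FPKM, 41 and 260 for genes also expressed in blastocysts, 4 and 3 with the 2-cell libraries alone, and 7 and 4 with array weights. The lower calls went to 223 with no filter, 132 under median-of-ratios scaling and 113 under quantile normalization. Replicate numbers did not pair the libraries (correlation of deviations -0.089 at the 2-cell stage), and a fit with the replicate number as a block called 6 higher and 4 lower, with 6 stage differences. The counts by size (161 higher, 634 lower) went to 290 and 1176 with a pseudocount of 0.1, 101 and 299 at a mean of at least 5 FPKM, 308 and 360 with median-of-ratios scaling, and 315 and 318 after quantile normalization. The 13 stage differences went to 8 with no filter, 1 with small RNA genes left out and the libraries rescaled to equal sums, and 3 for genes also in blastocysts. Leaving out 1 library gave 7 to 895 higher and 0 to 2832 lower calls, 112 to 462 and 522 to 1464 by size, and 5 to 2057 stage differences. The cause of these shifts was not tested. Read depth is unknown and limits what can be said of genes near 0.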

Other observations

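Of 135 Tmem genes, which share only a symbol for transmembrane proteins and were picked after their values were seen, 9 fell and none rose, 6.67% against 3.55% of all genes, with a median log2 change of -0.40.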
